A study of Rattus rattus with 8 samples.

Results

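The account covers 10 genes of growth factor signalling in the liver: the EGF receptor Egfr with its relatives Erbb2 and Erbb3, the EGF receptor ligands Tgfa, Areg and Hbegf, hepatocyte growth factor Hgf with its receptor Met, transforming growth factor Tgfb1, and the mannose 6-phosphate receptor Igf2r. They were chosen by gene symbol, matched exactly to the probe table of the array. All 10 symbols were found, among 16945 genes named there, on 49 features. The RNA came from livers of male rats of the WH strain that had eaten diet with 2500 ppm sodium phenobarbital (NaPB group, 4 rats) or with 0 ppm (control group, 4 rats) for 7 days. Both groups otherwise shared strain, sex and tissue, their age was not stated, and each rat had its own single-colour (Cy3) Agilent array. Phenobarbital, of which NaPB is the sodium salt, is a sedative that switches on CAR, a nuclear receptor that regulates many drug-metabolizing enzymes, and the study asked about liver growth by larger cells and by more cells.

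EGF family ligands are made as membrane proteins, are released by cleavage and bind EGFR and its relatives, which then signal through the adaptor GRB2, RAS and the kinase ERK. HGF comes mainly from non-parenchymal cells such as stellate cells and acts on hepatocytes through MET. Both are known as complete mitogens for hepatocytes, whereas TGF-beta 1 halts their growth. Work in mouse and human cells has shown that phenobarbital binds the EGF receptor and blocks its signalling, which leads to activation of CAR.

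Levels are scaled intensities, the geometric mean over the features of a gene, on a scale on which the 75th percentile of the named features of an array equals 1. Values under a floor of 0.03 were set to 0.03, and levels of different genes are not set against each other because probes differ in brightness. Errors of log2 changes are standard errors of the NaPB minus control difference in limma (n = 4 rats per group), and adjusted p is limma's moderated p after Benjamini-Hochberg adjustment across the 10944 genes that were tested. Of the 10 members 7 passed the filter on low values and were tested, and 3 (Areg, Hbegf and Erbb2) lay at or next to the floor. Precision is limited by the number of arrays, 4 per group.

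Egfr and Hgf fell with NaPB, each to about 71% of the control level (70.7% and 70.9%). They were the members past the threshold, 2 of the 7 tested, both lower. Over all tested genes a call was made in 10.5%, higher with NaPB in 6.16% and lower in 4.29%. Met was lower and Tgfa higher in every NaPB liver than in any control liver, but neither passed. Among all tested genes such separation without overlap was seen in 19.1%, with NaPB lower in 8.36% and higher in 10.8%. Erbb3, Tgfb1 and Igf2r overlapped between the diets.

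**Figure D1:**
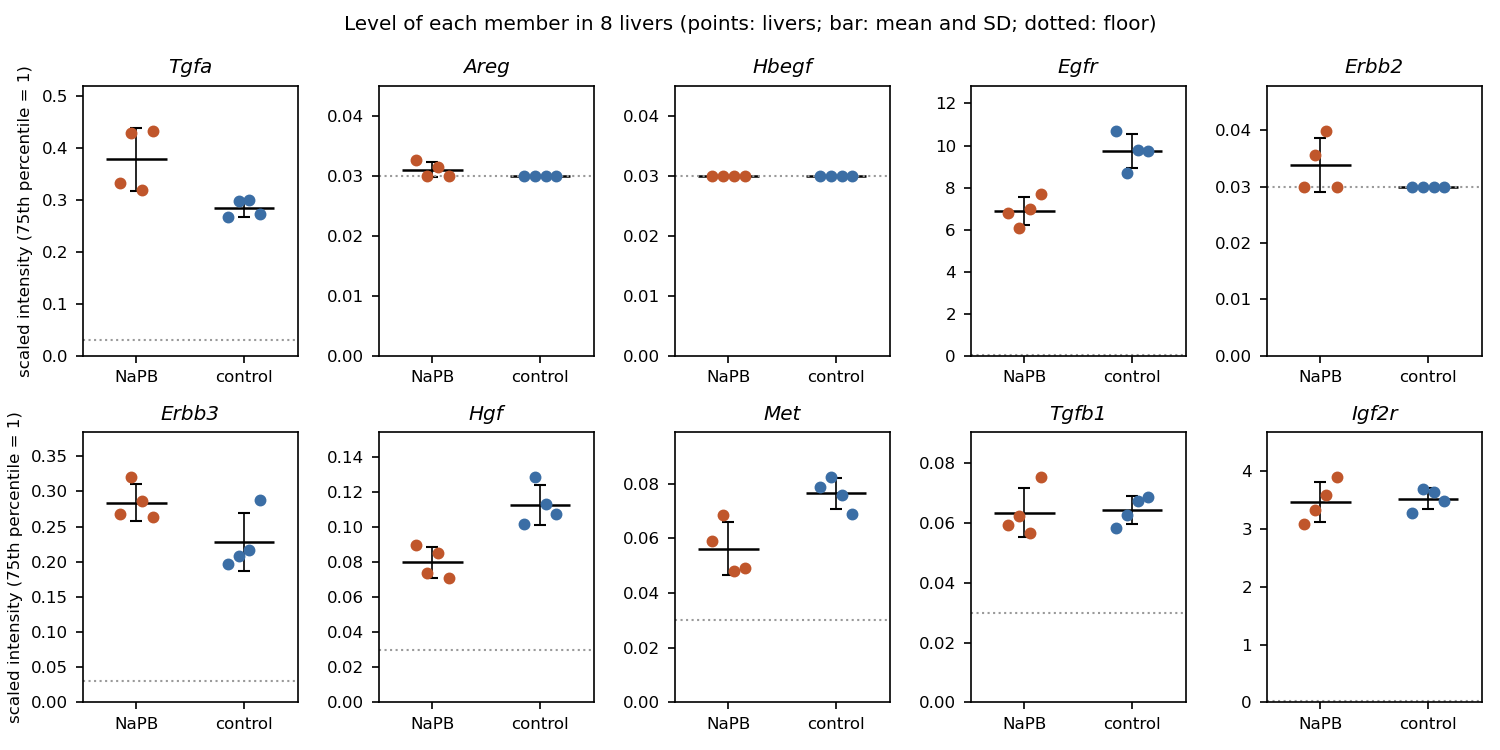
Scaled intensity of each of the 10 members (y axis, 75th percentile of named features = 1, own scale per panel) in the 4 NaPB and 4 control livers (points), with the mean (bar) and SD, and the floor of 0.03 as a dotted line. Egfr, Hgf and Met lie lower in all 4 NaPB livers than in any control liver and Tgfa lies higher, while Areg, Hbegf and Erbb2 lie on or next to the floor.

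The arrays gave a usable liver signal in both groups. All 8 hepatocyte markers on the list (Alb, Apoa1, Ttr, Tf, Serpina1, Hnf4a, Ass1 and Cps1) passed the filter. Cyp2b2, a P450 induced through CAR, ranged from 111 to 138 in NaPB livers and from 4.41 to 6.49 in control livers. Over all genes, 1144 of 10944 changed, a count that was 698 without control replicate 1 and 625 without control replicate 2. The share of changed genes that were higher was 58.9%. It was 33.6% with the medians of all features equalized between arrays, a scaling that shifted the median log2 change of all genes from 0.0015 to -0.081.

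Tgfa, which encodes TGF-alpha, an EGF receptor ligand that hepatocytes themselves can make, had levels of 0.333, 0.429, 0.319 and 0.432 in NaPB livers 1 to 4, against 0.267, 0.297, 0.299 and 0.272 in control livers 1 to 4. The NaPB livers were all above the controls and spread more widely, with NaPB replicates 2 and 4 high and 1 and 3 just above the control range. The log2 change was 0.40 ± 0.12 (95% interval 0.13 to 0.67), and it did not pass (adjusted p = 0.0671). Without NaPB replicate 3 it was 0.48 and passed (adjusted p = 0.0442). All 4 features of Tgfa were positive, at 0.34 to 0.46, and 1 of them passed in the fit over features (adjusted p = 0.0293). In that fit, 5.73% of all tested features were higher with NaPB and 3.97% lower.

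Amphiregulin (Areg) and heparin-binding EGF-like growth factor (Hbegf), ligands that injured or regenerating liver can make, were not measurable. Of the values of the 10 Areg features, 3 of 40 in NaPB livers and 0 of 40 in control livers lay above the floor, and the highest was 0.0629. None of the 8 values of Hbegf in either group did, and the highest was 0.0273. No fold change is given for these genes, and at this signal a difference was not detectable.

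Egfr, the receptor for all of these ligands, had levels of 6.78, 6.08, 6.99 and 7.69 in NaPB livers 1 to 4, against 10.69, 8.69, 9.78 and 9.76 in control livers 1 to 4. Every NaPB liver lay below every control liver, and the closest pair was NaPB replicate 4 and control replicate 2. The mean was 6.89 ± 0.660 in NaPB livers and 9.73 ± 0.820 in control livers (SD, n = 4 each). Egfr fell by 0.50 ± 0.097 on the log2 scale (95% interval -0.72 to -0.28, adjusted p = 0.0149). Both features passed, at -0.53 and -0.47 (adjusted p = 0.0107 and 0.0298). The call held without any 1 array, with a log2 change between -0.55 and -0.44 and an adjusted p of at most 0.0438.

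In whole liver RNA, fewer cells of a type and less RNA per cell cannot be told apart. Beside the fall of Egfr, 1 of 8 hepatocyte markers fell and 1 rose, and the summed level of the list ranged from 960 to 1102 in NaPB livers and from 1110 to 1235 in control livers. The markers had a median log2 change of -0.20, with 7 negative and 1 positive. Without the brightest marker, Ttr, the sum was 703 to 802 in NaPB livers and 845 to 932 in control livers. Of all genes tested 6.16% rose and 4.29% fell. Cps1, a urea cycle enzyme, fell by 0.63 ± 0.087 (adjusted p = 0.00324), and Hnf4a, a regulator of hepatocyte genes, rose by 0.57 ± 0.10 (adjusted p = 0.0123). The other 6 did not pass. The summed level is weighted by bright genes, and Cps1 and Hnf4a, at no more than 9.08 and 0.631 in any liver, add little to it. The part of these markers in the fall of Egfr was not tested.

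Erbb3, a relative of EGFR that binds neuregulins and signals through partner receptors, had levels of 0.268, 0.320, 0.286 and 0.263 in NaPB livers 1 to 4, against 0.197, 0.208, 0.217 and 0.288 in control livers 1 to 4. Control replicate 4 reached into the NaPB range, so the groups overlapped, whereas the other 3 controls lay below all NaPB livers. The log2 change was 0.33 ± 0.13 (95% interval 0.040 to 0.63) and did not pass (adjusted p = 0.139). Without control replicate 4 it was 0.45 and passed (adjusted p = 0.0266). The 2 features were at 0.36 and 0.31 and neither passed.

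Erbb2, the partner receptor without a ligand of its own, lay at the floor in all 16 control feature values and in 14 of 16 NaPB feature values. The 2 exceptions came from 1 feature, in NaPB replicates 2 and 3, and the higher was 0.0933. Adult rat hepatocytes are known for EGFR and ERBB3 rather than ERBB2. No fold change is given for Erbb2.

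Hgf had levels of 0.0899, 0.0742, 0.0852 and 0.0713 in NaPB livers 1 to 4, against 0.102, 0.129, 0.113 and 0.107 in control livers 1 to 4. All NaPB livers lay below all controls, although control replicate 1 was close to NaPB replicate 1. The mean was 0.0802 ± 0.00883 in NaPB livers and 0.113 ± 0.0114 in control livers (SD, n = 4 each). Hgf fell by 0.50 ± 0.11 on the log2 scale (95% interval -0.74 to -0.25, adjusted p = 0.0220). All 10 features were negative, from -0.67 to -0.21, and 6 of them passed. The gene lay near the lower end of the measurable range, although no value was at the floor. With a floor of 0.1 the log2 change was -0.17 and did not pass (adjusted p = 0.164). That floor lies above the levels of all 4 NaPB livers, so the change had to shrink. The brightest feature alone was at -0.21 (adjusted p = 0.411). In NaPB replicate 4 it read 0.145, where the gene's other features lay between 0.0534 and 0.0815. In the other NaPB livers it read 0.0918 to 0.101. The call was also lost with no filter on low genes (adjusted p = 0.0540) and without NaPB replicate 2 or 4 or control replicate 2 or 3 (adjusted p up to 0.0594).

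Stellate cells are a main source of HGF, and part of their markers were lower beside it. Of 10 measured markers 3 fell, 1 rose and 6 did not pass, with a median log2 change of -0.34, against 0.0015 over all genes tested. Of all genes tested 6.16% rose and 4.29% fell. The summed level of the 10 markers ranged from 5.59 to 6.38 in NaPB livers and from 6.86 to 9.91 in control livers, without overlap. Every marker passed the filter on low values, Hand2 only through the control livers, since it lay at 0.03 to 0.0327 in NaPB livers. Without the brightest marker, Col3a1, the sum was 1.68 to 2.06 in NaPB livers and 2.20 to 2.88 in control livers. That sum still holds Pdgfrb, the marker with the largest fall, and no sum without both genes was made, so a fall across the list is not shown. Pdgfrb, the receptor for platelet-derived growth factor, had levels of 0.371, 0.380, 0.299 and 0.291 in NaPB livers 1 to 4, against 0.707, 0.764, 0.657 and 0.721 in control livers 1 to 4, and fell by 1.10 ± 0.11 (adjusted p = 0.00075). The matrix genes Reln and Col3a1 fell by 0.33 ± 0.080 and by 0.50 ± 0.13 (adjusted p = 0.0334 and 0.0453), and each of these calls was lost in 7 of the 8 fits without 1 array (adjusted p up to 0.0947 and 0.117). Rgs5, a pericyte gene, rose by 0.81 ± 0.14 (adjusted p = 0.00978), and Lrat, the enzyme that stores vitamin A, was at -0.35 ± 0.14 (adjusted p = 0.155). The summed level of 6 sinusoidal endothelial markers also differed without overlap, from 14.4 to 16.5 in NaPB livers and from 17.8 to 20.3 in control livers. Without its brightest gene, Kdr, the sum of the other 5 overlapped, at 5.75 to 6.30 in NaPB livers and 5.67 to 6.60 in control livers. Kdr, a VEGF receptor gene, fell by 0.41 ± 0.081 (adjusted p = 0.0166), the other 5 did not pass, and the median was -0.024. The part of these cell types in the fall of Hgf was not tested.

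**Figure D2:**
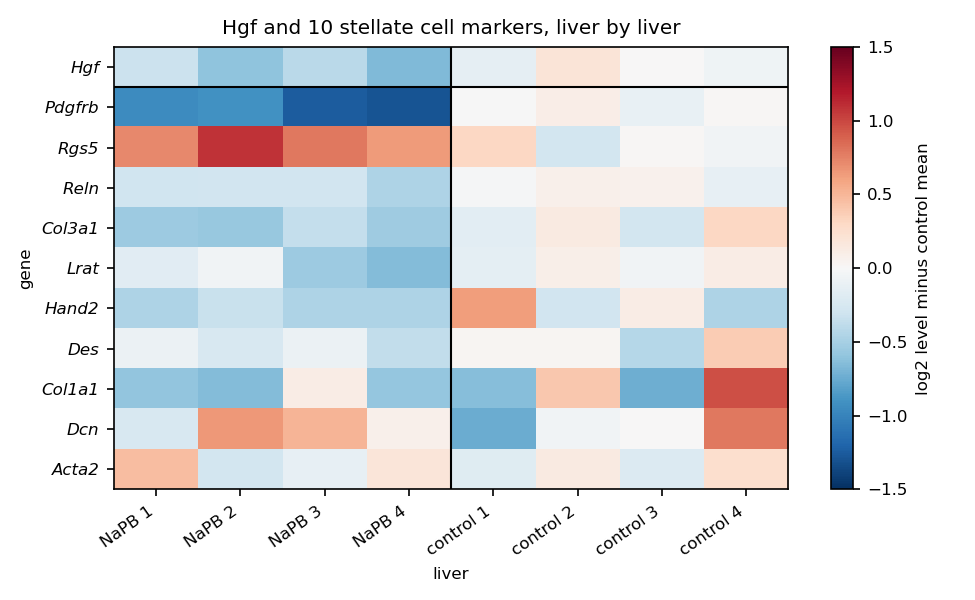
Log2 level minus the control mean (colour) of Hgf (top row) and 10 stellate cell markers (other rows) in each of the 4 NaPB livers (left) and 4 control livers (right). Hgf, Pdgfrb, Reln, Col3a1, Lrat, Des and Hand2 are below the control mean in all NaPB livers. Rgs5 is above it, and Col1a1, Dcn and Acta2 vary within both groups.

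Met, the HGF receptor, had levels of 0.0591, 0.0686, 0.0480 and 0.0492 in NaPB livers 1 to 4, against 0.0787, 0.0823, 0.0759 and 0.0689 in control livers 1 to 4. The NaPB livers were all lower, but NaPB replicate 2 nearly reached control replicate 4. The log2 change was -0.46 ± 0.12 (95% interval -0.74 to -0.17) and missed the threshold (adjusted p = 0.0517). It passed with quantile normalization (-0.54, adjusted p = 0.0123), with the medians of the tested genes equalized (-0.48, adjusted p = 0.0343) and without NaPB replicate 2 (-0.56, adjusted p = 0.0211). It was at -0.087 with a floor of 0.1 (adjusted p = 0.454), which lies above the Met level of every liver, so the change had to shrink. The 3 features ranged from -0.71 to -0.26, and the lowest of these changes passed (adjusted p = 0.0430), while 2 of 12 NaPB feature values were at the floor.

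**Figure D3:**
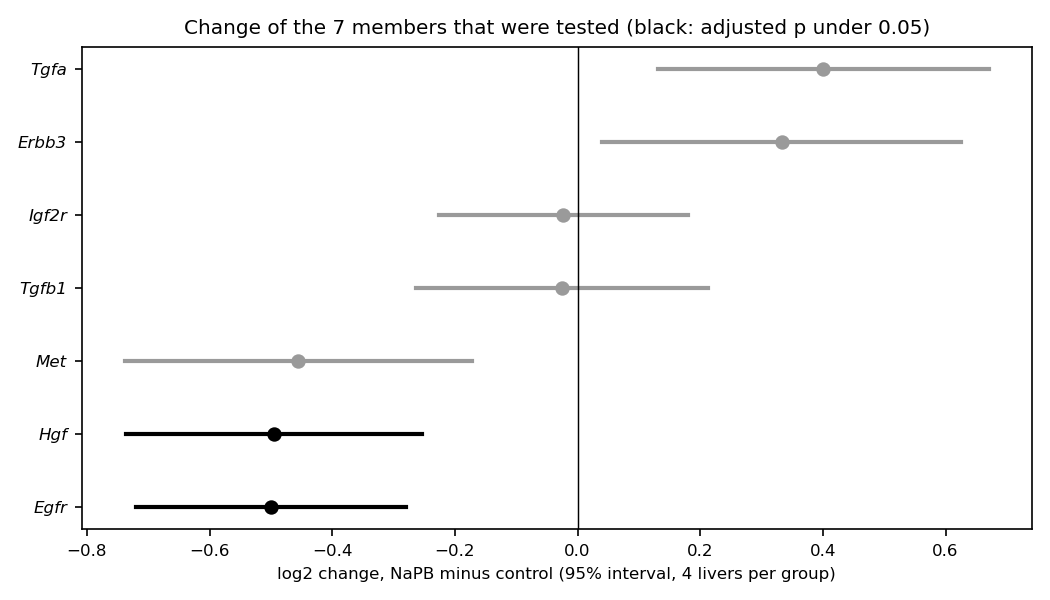
Log2 change, NaPB minus control, of the 7 tested members (points) with 95% intervals (lines, 4 livers per group), in black where the adjusted p is under 0.05. The intervals of Egfr and Hgf, both centred at -0.50, pass the adjusted threshold, and those of Igf2r and Tgfb1 hold 0.

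Tgfb1 had levels of 0.0594, 0.0625, 0.0566 and 0.0753 in NaPB livers 1 to 4, against 0.0584, 0.0627, 0.0675 and 0.0686 in control livers 1 to 4. The groups overlapped throughout. The log2 change was -0.025 ± 0.10 (adjusted p = 0.902), with a 95% interval from -0.26 to 0.21. One spot stood apart: in NaPB replicate 3, 1 of the 10 features read 0.362, where the other 9 lay between 0.0365 and 0.0545. Without that spot the level of this liver was 0.0461. Its feature, the brightest of the gene, had a log2 change of 0.81 ± 0.51 (not passed, adjusted p = 0.348), and with the features' median the gene was at -0.11.

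Igf2r, which carries lysosomal enzymes, takes up IGF2 and can bind latent TGF-beta, had levels of 3.09, 3.33, 3.596 and 3.89 in NaPB livers 1 to 4, against 3.28, 3.69, 3.64 and 3.49 in control livers 1 to 4. The NaPB livers lay on both sides of the controls. The log2 change was -0.023 ± 0.090 (95% interval -0.23 to 0.18, adjusted p = 0.896), and the 2 features were at -0.037 and -0.0088.

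**Figure D4:**
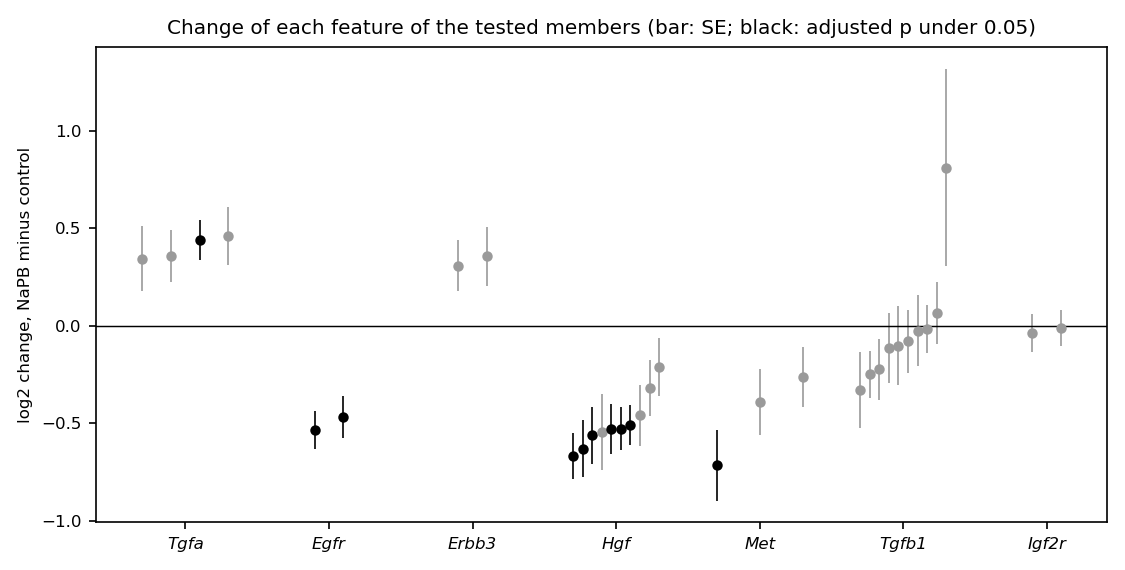
Log2 change, NaPB minus control, of every feature of the 7 tested members (points, with SE as lines, grouped by gene on the x axis), in black where the adjusted p over all tested features is under 0.05. The 2 Egfr features and the 10 Hgf features are all negative, the 4 Tgfa features all positive, and 1 Tgfb1 feature stands at 0.81 with a wide error.

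In the fit over features, 10 features of the members passed, 2 of Egfr, 6 of Hgf, 1 of Met and 1 of Tgfa. Over all 30504 tested features 9.69% did. The features of a gene share its RNA and its array and are not replicates, and whether they carry the same probe was not stated.

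The other genes of these pathways were read from 8 lists. The probe table named 109 of their genes and 87 were tested, of which 3 rose, 6 fell and 78 did not pass. That is 10.3%, next to 10.5% of all genes, and in single lists the share ranged from 0% to 18.75%. The 87 genes had a median log2 change of -0.10, against 0.0015 over all genes tested, and 58 were negative and 29 positive. The share of negative genes over all genes tested was not counted. The lower count was smaller in every fit without 1 array and varied with the scaling. It was 2, beside 3 higher, without NaPB replicate 1, 3 or 4 or control replicate 1 or 2 and with the brightest feature of each gene. It was 3 without control replicate 3 or 4 and 4 without NaPB replicate 2, again beside 3 higher. With quantile normalization it was 9 and with the medians of all features equalized 10, also beside 3 higher. Over all genes the lower count fell too without 1 array, from 470 to between 240 and 426.

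Upstream of the receptors, of 9 further ligands and receptors of the EGF family 7 lay too low to be tested, and Egf itself was at -0.15 ± 0.15 (adjusted p = 0.580). The median of the 2 tested genes, Egf and Nrg1, was 0.034. Of 6 genes of ligand shedding 1 rose and 5 did not pass, with a median of -0.031. It was Rhbdf2, a pseudoprotease that brings the sheddase ADAM17 to the cell surface, with levels of 0.205, 0.197, 0.171 and 0.222 in NaPB livers 1 to 4, against 0.106, 0.105, 0.0690 and 0.140 in control livers 1 to 4. The groups did not overlap, and the log2 change was 0.96 ± 0.20 (adjusted p = 0.0180). The call of Rhbdf2 was lost with no filter on low genes. Of 9 tested genes of HGF activation none passed, at a median of -0.10, and the smallest p was that of the HGF activator inhibitor Spint2, at -0.12 ± 0.084 (adjusted p = 0.403).

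Downstream, 2 of 20 adaptors and kinases fell and none rose, with a median of -0.11. Grb2, the adaptor that links EGFR and MET to RAS, had levels of 0.930, 0.971, 0.867 and 0.919 in NaPB livers 1 to 4, against 1.07, 1.16, 1.11 and 1.19 in control livers 1 to 4. The groups did not overlap, and Grb2 fell by 0.30 ± 0.072 (adjusted p = 0.0338). Cblb, a ubiquitin ligase that marks activated receptors for breakdown, fell by 0.29 ± 0.076 (adjusted p = 0.0455). The call of Grb2 was lost in 7 and that of Cblb in 8 of the 8 fits without 1 array (adjusted p up to 0.0941 and 0.116), and both were lost with the brightest feature.

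Among 13 feedback inhibitors 1 fell, none rose and 12 did not pass. Of these 13 genes 11 were negative, at a median of -0.22, against 0.0015 over all genes tested. Spry4, an inhibitor of RAS signalling that ERK itself induces, had levels of 0.0552, 0.0620, 0.0551 and 0.0526 in NaPB livers 1 to 4, against 0.0805, 0.0776, 0.137 and 0.0802 in control livers 1 to 4. All NaPB livers lay lower, and control replicate 3 stood above the other controls. Spry4 fell by 0.70 ± 0.18 (adjusted p = 0.0410), a call lost in 7 of the 8 fits without 1 array (adjusted p up to 0.0916), with no filter and with the brightest feature. The change was -0.095 with a floor of 0.1, which lies above the Spry4 level of every liver but control replicate 3. Chosen after their values were seen, Dusp6, a phosphatase that switches ERK off, was at -0.80 ± 0.25 (adjusted p = 0.0796, and 0.0480 without control replicate 4), and Errfi1, which binds and inhibits EGFR, was at -0.59 ± 0.21 (adjusted p = 0.116). The 2 positive genes of the list, Rnf41 and Spry2, were at 0.26 ± 0.13 and 0.20 ± 0.14 (adjusted p = 0.248 and 0.409).

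Of 7 tested ERK target genes none passed, at a median of -0.22. Junb, an immediate early transcription factor, had the smallest p, with levels of 7.40, 3.03, 6.28 and 2.90 in NaPB livers 1 to 4, against 6.88, 8.77, 9.43 and 7.30 in control livers 1 to 4. NaPB replicates 2 and 4 were far below the other livers and the groups overlapped. The log2 change was -0.84 ± 0.31 (adjusted p = 0.124).

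On the TGF-beta side 3 of 16 genes fell and none rose, with a median of -0.031. Tgfbi, a matrix protein that TGF-beta induces, had levels of 9.82, 9.48, 9.71 and 8.81 in NaPB livers 1 to 4, against 12.8, 13.1, 11.8 and 12.7 in control livers 1 to 4. The groups did not overlap, and Tgfbi fell by 0.42 ± 0.071 (adjusted p = 0.00885). Ltbp3, which holds latent TGF-beta in the matrix, lay at or just above the floor in NaPB livers, at 0.03 to 0.0322, and at 0.0457 to 0.0610 in control livers (adjusted p = 0.00174). Its log2 change of -0.83 therefore depends on the floor. The receptor gene Tgfbr1 fell by 0.27 ± 0.070 (adjusted p = 0.0402), a call lost in all 8 fits without 1 array (adjusted p up to 0.0973) and with the brightest feature.

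Around Igf2r, 2 of 14 genes of the mannose 6-phosphate and IGF axis rose and none fell, with a median of -0.039. Both encode lysosomal proteases, which are cargo of mannose 6-phosphate receptors. Ctsd (cathepsin D) had levels of 28.4, 26.4, 30.7 and 25.2 in NaPB livers 1 to 4, against 18.8, 19.1, 18.7 and 19.4 in control livers 1 to 4. It rose by 0.54 ± 0.079 (adjusted p = 0.00443). Ctsl1 (cathepsin L) had levels of 68.9, 61.4, 70.8 and 58.0 in NaPB livers 1 to 4, against 38.9, 34.04, 37.3 and 48.6 in control livers 1 to 4, and rose by 0.71 ± 0.12 (adjusted p = 0.00885). Neither gene overlapped between the diets, while Igf2r itself did.

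**Figure D5:**
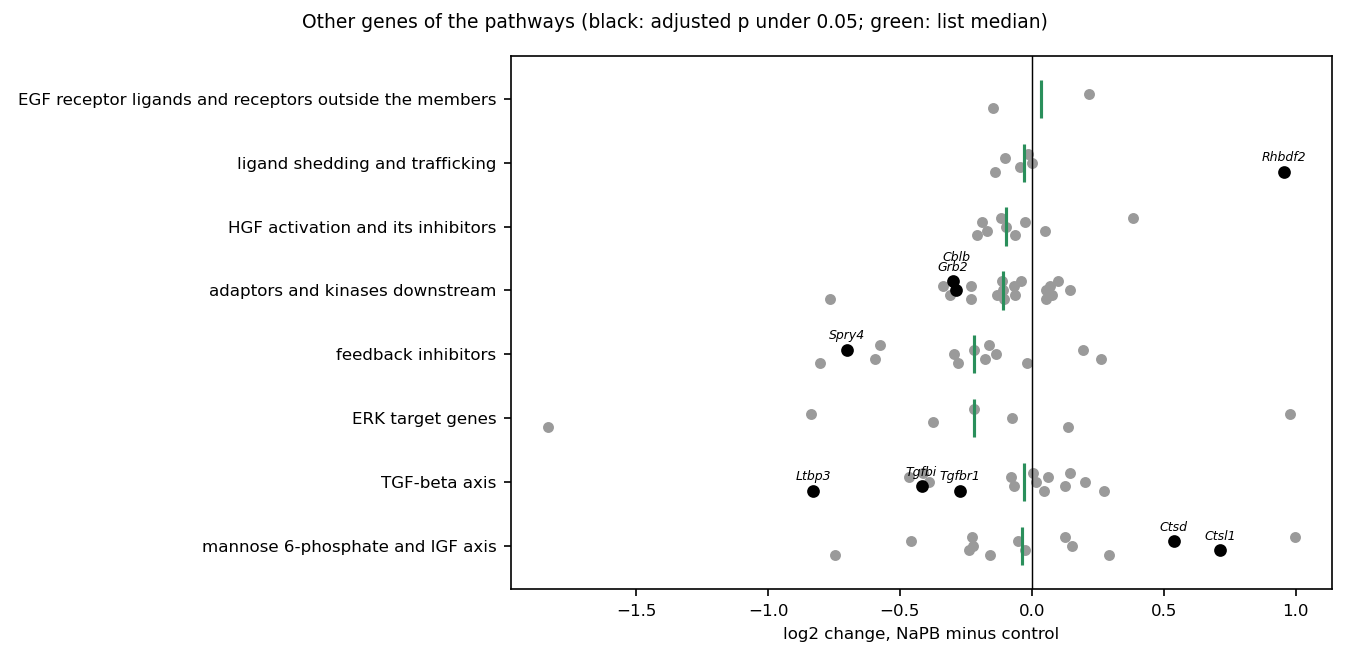
Log2 change, NaPB minus control (x axis), of the 87 tested genes of the 8 pathway lists (rows), in black and named where the adjusted p is under 0.05, with the list median as a green line. The 9 changed genes are spread over 5 lists, and Rhbdf2, Ctsd and Ctsl1 are the ones that rose.

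Over the 8 livers, the genes whose log2 levels ran most closely with those of Egfr were Gata6, a transcription factor gene (r = 0.961), Gtf3c6, a subunit of a general factor of RNA polymerase III (r = 0.960), and Tpr, a nuclear pore protein (r = 0.958). Their log2 changes were -0.40, -0.24 and -0.15, and of them Gata6 passed (adjusted p = 0.0337). That call was lost in 7 of the 8 fits without 1 array (adjusted p up to 0.0809), with no filter and with the brightest feature. For Hgf they were Mmp16, a membrane metalloprotease (r = 0.988), Gnmt, a methyltransferase of hepatocytes (r = 0.982), and Kcnk3, a potassium channel (r = 0.976), at -0.38, -0.73 and -0.44 (adjusted p = 0.0236, 0.0185 and 0.0141). The call of Mmp16 was lost without NaPB replicate 2 or 4 or control replicate 2, with the brightest feature and with a floor of 0.1, that of Gnmt without control replicate 2 and with no filter, and that of Kcnk3 with the brightest feature. A floor of 0.1 lies above the Mmp16 level of every liver but control replicate 2. These correlations include the difference between the diets, which the points share, and were the highest of 10943 each.

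Markers of other cell types were counted too, beside 6.16% of all genes tested that rose and 4.29% that fell. Of 6 Kupffer cell and macrophage markers, cells that can make TGF-beta 1, 1 fell (Cd163, a scavenger receptor, by 0.57 ± 0.11, adjusted p = 0.0130) and 5 did not pass, with a median of -0.15 and a summed level of 23.0 to 29.3 in NaPB livers and 26.1 to 30.7 in control livers. Of 4 tested bile duct markers Epcam, an adhesion molecule, rose by 1.60 ± 0.11 (adjusted p = 0.000159) and the other 3 did not pass, with a median of 0.60. That median depends on the floor through Krt7, at 0.85, which lay at 0.03 to 0.0395 in control livers. Without Epcam the summed level of the other 5 listed markers overlapped, at 0.172 to 0.266 in NaPB livers and 0.156 to 0.204 in control livers. Of 4 tested lymphocyte markers Cd8a fell by 0.58 ± 0.16 (adjusted p = 0.0490), a call lost in 7 of the 8 fits without 1 array, and the median was -0.12. None of 3 tested neutrophil markers passed, at a median of -0.46.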

How the data were processed

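Liver RNA of 8 rats was measured on 1 single-colour array per rat. The values, as deposited, are linear spot intensity: all are positive, right-skewed and on a similar scale on every array, so some factor per array had been applied. Per the submitters' processing notes, Agilent Feature Extraction 10.7 was used. Background subtraction, flags and that factor, and any slide, date or batch, were not stated. The organism is Rattus rattus per the labels. Of 62976 features, 45904 carried 1 gene symbol, none several and 17072 none. The named features were used, since control spots are not marked.

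Intensities were divided by the array's 75th percentile over named features (1.08 to 1.09 before scaling). Values under 0.03 were set to 0.03 (31.8% to 34.5% of named features per array), and the log2 values of a gene's features were averaged. Genes with a mean above that floor in 3 or more arrays of either group were tested with limma 3.58.1 (lmFit, eBayes, two-sided) in R 4.3.3 at an adjusted p of 0.05. The fit was tested on simulated data. Across log2 values of all features, arrays correlated at 0.977 to 0.984 within the NaPB group, 0.981 to 0.989 within the control group and 0.973 to 0.984 between groups, and no 2 arrays held the same values. Plots were made with matplotlib 3.10.9 (Python 3.11.15).

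All members are named, and from each pathway list up to 4 genes past the threshold, or else the one with the smallest p. For Egfr and each changed member the 3 genes with the highest Pearson correlation were named. Cell type markers are given beside the results they move with. The members and lists were chosen with earlier results of these data known. Alternatives were quantile normalization, equal medians of the tested genes, the deposited scale, a floor of 0.1, no filter, the brightest feature, a trended and robust prior, the replicate number as a block and leaving out each array. The features' median and equal medians of all features were added after seeing the data. Coordinates and sequences were not used here.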

Additional observations from a re-analysis of the deposited data

Results flagged for a closer look

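Within groups of 4 livers, 52 groups of the genes named by rule were searched for a liver far from the others, which chance gives in about 1 of 20 groups, and 3 were found. Spry4 in control replicate 3 had a log2 level of -2.86 (0.137), where the other controls lay between 0.0776 and 0.0805. Gata6 in NaPB replicate 2 had a log2 level of -4.13 (0.0572), below the other NaPB livers at 0.0684 to 0.0706. Gata6 in control replicate 1 had a log2 level of -3.34 (0.0984), above the other controls at 0.0827 to 0.0847. None of the 7 tested members was among them.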

How the results depend on the processing

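Egfr kept its direction and its call in all 18 alternatives, with log2 changes from -0.59 to -0.44. Hgf was negative in all 18 and kept its call in 10. It lost it with a floor of 0.1 (-0.17), which lies above its level in every NaPB liver, and with no filter (-0.50). Its call was lost too with the brightest feature (-0.21), which holds a high spot of NaPB replicate 4. The same held with the replicate number as a block (-0.50, adjusted p = 0.0784) and without some single arrays, where Hgf ranged from -0.55 to -0.43. Met gained a call with quantile normalization (-0.54), the same median of tested genes (-0.48), the same median of all features (-0.54) and the median of its features (-0.66), and ranged from -0.56 to -0.38 without single arrays. Erbb3 (0.27 to 0.45) and Tgfa (0.33 to 0.48) gained one without 1 array each. Tgfb1 changed sign with the brightest feature (0.81), which holds the high spot of NaPB replicate 3, and without single arrays (-0.11 to 0.027). Igf2r changed sign without single arrays (-0.079 to 0.032), and neither gene ever passed the threshold. The cause was not tested.

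Changed genes numbered 1144, 739 with no filter, 583 with the replicate block and 625 to 980 without single arrays. Changed pathway genes numbered 9, 5 with the brightest feature, 5 with the block and 5 to 7 without single arrays. Changed members numbered 2, and 1 with a floor of 0.1, no filter, the brightest feature or the block, and 1 to 3 without single arrays. Changed member features numbered 10, and 4 with a floor of 0.1. That floor lies above the levels of Tgfb1 and Met in every liver and of Hgf in every NaPB liver. With it, Tgfb1 could not be tested, and the changes of Met and Hgf had to shrink. Deviations from the group means correlated at 0.076, 0.061, -0.13 and -0.068 between same-numbered rats. The highest correlations with another number were 0.025, 0.13, 0.27 and 0.092. The labels state no pairing, and these low values cannot show whether the numbers mark a shared batch. Signal near the floor limits Hgf, Met, Tgfb1, Spry4 and Ltbp3.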
